A study of Mus musculus with 20 samples.

Results

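The livers compared here came from 8 of the 20 mice of the series, 4 Cse-/- and 4 Cse+/- mice that were fed a diet without cysteine (no-Cys). They were chosen by genotype and diet alone, without reference to any measured value. Cse is the common name of Cth, the gene for cystathionine gamma-lyase. The mice were males of at least 9 weeks on a mixed 129/C57BL/6 background, and the Cse+/- mice, which carry 1 intact allele, are the ones labelled WT in GEO. After a period on a calorie-restricted control diet, both genotypes received the no-Cys diet, also calorie-restricted, for 2 days before the liver was taken. A chemically defined diet, 5CC7, was its base, in which the amino acids that remained made up for the cysteine left out. Poly(A) RNA was sequenced from each liver, and reads were counted on the genes of GRCm38. The remaining 12 livers were 3 Cse-/- and 3 Cse+/- on a diet without tryptophan (no-Trp), 2 Cse+/- on the control diet and 4 Cse-/- on the no-Trp diet with L-buthionine sulfoximine (BSO). The no-Trp livers serve below as the comparison, and the others entered only the estimate of the spread. The knockout is constitutive and affects every cell of the animal. Both genotypes on the diet lacked dietary cysteine, so that each difference is that of the genotype under the same diet, and no Cse-/- liver on the control diet was among these libraries. Replicates were separate mice.

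Cystathionine gamma-lyase makes cysteine from cystathionine, the last step of the transsulfuration pathway that starts from methionine. Liver is a main site of this pathway. Cysteine is used there for proteins, for glutathione, for coenzyme A, for taurine and sulfate and, through its sulfur, for iron-sulfur clusters. Hepatocytes also make most plasma proteins, many of which are rich in disulfide bonds. When an amino acid runs short, uncharged tRNA activates the kinase GCN2 (Eif2ak4), and phosphorylation of eIF2 raises the translation of ATF4, a transcription factor of amino acid synthesis and transport. Electrophiles and a loss of glutathione activate NRF2, which drives genes of detoxification.

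In all, 14759 genes had enough counts to be tested. Of these, 1717 were higher in Cse-/- than in Cse+/- liver on the no-Cys diet (11.6%) and 1798 were lower (12.2%), so that 23.8% were called at a Benjamini-Hochberg adjusted p under 0.05 by edgeR's quasi-likelihood test. Among the called genes, 258 were higher and 551 were lower by at least 2-fold, and the median absolute log2 fold change of called genes was 0.59. The 4 values of one genotype lay wholly outside the 4 of the other for 3423 genes, or 23.2%. The median log2 fold change of all genes was -0.009, and with the size factors of DESeq2 or RLE factors in edgeR it was -0.008. Below, a value per mouse is in CPM, counts per 1000000 counts of the library after TMM scaling, and values of a group are listed in the order of mice av01 to av04 (Cse+/-) and av05 to av08 (Cse-/-). A fold change is the log2 difference Cse-/- minus Cse+/- with its standard error (SE).

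Counts on genes ranged from 11785740 to 15436551 per library. One mouse of each genotype stood apart from its group. Between pairs of Cse-/- livers the chi-square per gene was 43.3 to 48.9 for pairs with mouse av08 and 9.6 to 16.3 for the others, and among Cse+/- livers it was 26.9 to 49.8 for pairs with av01 and 15.1 to 23.6 for the others. Without both mice 1643 genes were higher and 1771 lower, and 80.0% and 80.6% of the original calls were among them. The 10 most abundant genes took 16.8 to 18.7% of counts in Cse+/- and 12.5 to 15.1% in Cse-/- livers.

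Marker genes of other cell types were summed for each liver, because a bulk library mixes all cells of the tissue, and fewer cells of a type cannot be told apart from less RNA per cell. The 8 erythroid markers summed to 202 to 410 CPM in Cse+/- and 69.1 to 115 CPM in Cse-/- livers, and all 6 that could be tested were lower. The 7 cholangiocyte markers summed to 46.4 to 58.9 CPM against 16.6 to 29.2 CPM, with 2 of 6 tested lower. Those of Kupffer cells and macrophages lay at 436 to 528 against 360 to 427 CPM, with 3 of 13 lower. Those of lymphocytes and neutrophils lay at 11.4 to 16.2 against 7.97 to 9.75 CPM, with 1 of 8 lower. For stellate cells and fibroblasts the ranges overlapped, 437 to 526 against 402 to 454 CPM, with 4 of 10 lower, as they did for sinusoidal endothelium at 299 to 369 against 294 to 347 CPM. The hepatocyte markers carried 109649 to 135123 CPM in Cse+/- and 70082 to 98763 CPM in Cse-/- livers, with 3 of 10 higher and 5 lower. Some of these separations rest on 1 abundant marker, as a sum without it showed, which was chosen after seeing the data. Without Alb, serum albumin, the other 9 hepatocyte markers summed to 45474 to 50205 CPM against 43250 to 49850 CPM, and the genotypes overlapped. Without Spp1, osteopontin, the other 6 cholangiocyte markers summed to 8.17 to 16.4 CPM against 4.84 to 8.85 CPM, and overlapped too. Without Clec4f the Kupffer cell and macrophage sum lay at 347 to 423 against 287 to 333 CPM, and without Ptprc that of lymphocytes and neutrophils at 3.88 to 5.57 against 2.36 to 2.64 CPM, both still apart. The stellate cell and fibroblast sum came apart without Ecm1, at 296 to 339 against 248 to 292 CPM. The part of other cell types in the results was not tested. Markers of skeletal muscle summed to at most 1.32 CPM in any of the 8 livers, with Ckm, Myh4, Myh1, Tnnt3 and Pvalb at 0, those of adipose tissue to at most 13.4 CPM with Lep at 0, and those of pancreas to at most 26 CPM with Try4 and Amy2a5 at 0.

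**Figure D1:**
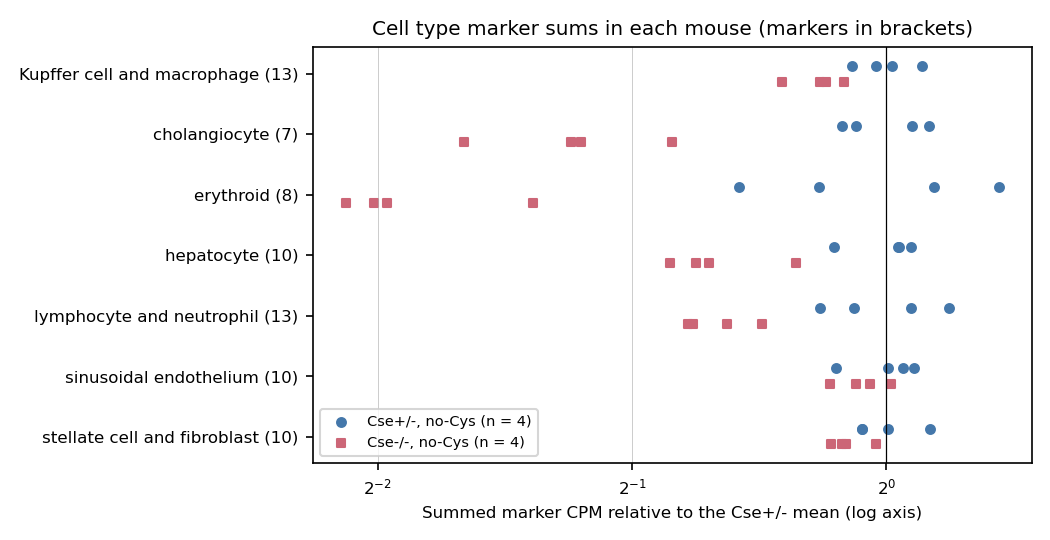
Summed CPM of the markers of 7 cell types in each of the 8 livers on the no-Cys diet, divided by the mean of the Cse+/- livers, on a log2 axis. Circles are Cse+/- and squares Cse-/- mice (n = 4 each). The sums of erythroid, cholangiocyte, Kupffer cell, lymphocyte and neutrophil, and hepatocyte markers do not overlap between genotypes, and those of endothelium and stellate cells do. Without Alb the hepatocyte sums overlap, as the cholangiocyte sums do without Spp1.

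The targeted gene was examined first. Cth (ENSMUSG00000028179, chr3:157894248-157925077, minus strand) was at 332, 125, 132 and 121 CPM in the Cse+/- livers. It was at 6.37, 7.04, 6.83 and 13.3 CPM in the Cse-/- livers. The ranges did not overlap, the mean was 21.2-fold lower in Cse-/-, and the log2 fold change was -4.41 (SE 0.33, adjusted p = 7.4e-08), so that the genotypes of all 8 libraries matched their labels. Reads remained on the gene in Cse-/- livers.

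Genes near Cth were compared with genes farther away, since the knockout was made on a mixed background and the targeted allele is inherited with its neighbours. Within 5 Mb of Cth, 7 of 17 tested genes were called (41.2%), against 18 of 67 (26.9%) at 5 to 20 Mb, 22 of 86 (25.6%) at 20 to 40 Mb and 123 of 615 on the rest of chromosome 3. Across chromosomes the share ran from 19.7% on X to 26.1% on 15. In the no-Trp livers, 3 of the same 17 genes were called (17.6%), where 2.64% of all genes were. Among the nearest was Gm43314, whose midpoint lies 0.0136 Mb from that of Cth. It lies within Cth on the same strand and was lower in Cse-/-, and its reads cannot be told apart from those of Cth. Acadm, 3.98 Mb away, which encodes medium-chain acyl-CoA dehydrogenase, was higher in Cse-/- by 0.35 (adjusted p = 0.0274), and its part in a linked background was not tested.

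The leading genes were picked among called genes with a mean of at least 1 CPM and no overlap between genotypes, leaving out predicted gene models and genes that the paper names. Their fold changes were thus used in the choice and are given as a description. Of the 12 with the largest increases, Pck2, mitochondrial phosphoenolpyruvate carboxykinase, was at 5.32, 6.28, 4.9 and 4.53 CPM in Cse+/- and 53.7, 71.4, 61.3 and 13.6 CPM in Cse-/- livers (log2 fold change 3.25, SE 0.35, adjusted p = 4.3e-06). Nupr1, a small stress-induced chromatin protein, was at 0.451, 0.917, 0.389 and 0.283 CPM against 6.26, 5.21, 15.2 and 1.7 CPM (3.78, SE 0.63, adjusted p = 0.00029). Both were lowest among the knockouts in mouse av08, which nevertheless lay above every Cse+/- mouse. Cd36, a fatty acid translocase of the plasma membrane, was at 24.3, 24.4, 31 and 29.7 CPM against 206, 204, 175 and 229 CPM (2.89, SE 0.18, adjusted p = 1.5e-08). Cd36 was among the most even of these genes within each genotype, with an SD of 3.48 CPM in Cse+/- and 22.3 CPM in Cse-/- livers.

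Among the enzymes and exporters of this group, Cbr3, a carbonyl reductase that acts on quinones, was at 0.36, 0.776, 0.855 and 0.849 CPM in Cse+/- and 3.72, 5.72, 9.62 and 2.95 CPM in Cse-/- livers. Abcc4, which exports organic anions and conjugated bile acids across the basolateral membrane, was at 2.16, 2.05, 3.03 and 2.26 CPM against 13.9, 14.4, 21.5 and 14 CPM. The log2 fold changes were 2.92 (adjusted p = 2.8e-05) for Cbr3 and 2.75 (adjusted p = 1.8e-06) for Abcc4, and neither gene overlapped between genotypes. Aldh1l2, the mitochondrial 10-formyltetrahydrofolate dehydrogenase, was at 0.451, 0.423, 0.311 and 0.637 CPM against 3.01, 4.99, 4.84 and 0.812 CPM (2.88, adjusted p = 0.00025). Extl1, a glycosyltransferase of the exostosin family, was at 4.51, 3.67, 3.5 and 5.38 CPM against 43, 39.8, 50.5 and 21 CPM (3.18, adjusted p = 5.2e-07). All 4 genes were higher in every Cse-/- liver than in any Cse+/- liver, with mouse av08 the lowest knockout for Cbr3, Aldh1l2 and Extl1.

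The sulfotransferases of this group were highest in mouse av08 instead. Sult1e1, which sulfonates estrogens, was at 0.721, 0.212, 0.389 and 0.142 CPM in Cse+/- livers and 4.43, 2.57, 0.807 and 29.9 CPM in Cse-/- livers (4.72, SE 1.16, adjusted p = 0.00594). Sult2a7, of the hydroxysteroid family, was at 2.52, 1.48, 1.48 and 1.13 CPM against 13.5, 19, 13.7 and 59 CPM (4.01, SE 0.57, adjusted p = 6.7e-05). For both, av08 exceeded the next knockout by a wide margin, and the other 3 knockouts still lay above all Cse+/- mice. Fut1, a fucosyltransferase, was at 0.0778 to 0.495 CPM against 0.664 to 4.78 CPM, with a log2 fold change of 2.95.

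A pair of genes that liver hardly uses were also in the group. Vmn2r3, annotated as a vomeronasal receptor, had 1 count in all Cse+/- livers together and 465 in the Cse-/- livers, a ratio of scaled counts of 403 with an exact 95% interval of 72 to 15967 that covers counting error only. Cox6a2, the subunit of cytochrome c oxidase that is typical of heart and skeletal muscle, was at 0, 0.141, 0.156 and 0 CPM against 5.13, 7.11, 4.1 and 0.59 CPM (5.68, SE 0.9, adjusted p = 0.00019). For each of them 3 knockouts stood well above av08, which was at 0.59 CPM. The other muscle markers were at or near 0 in these livers, as given above.

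To show the start sites of leading genes, promoter windows of 250 bases before to 50 after the start were taken from RefSeq (GRCm38.p6), which held 9 of the 12 leading higher genes and 7 of the 12 leading lower genes. The letters TGATGNAA, the core of the composite site that C/EBP and ATF4 bind, were searched on both strands. They occurred in the windows of Pck2, Nupr1 and Sult1e1, which are shown for that reason, and in 4.06% of all 27025 promoters. Letters of other types were searched too: TGACNNNGC (antioxidant response), TTCNNNGAA (heat shock), and TGCGCNC and TGCACNC (metal response). Of the 9 windows of higher genes, 3 held TGATGNAA, and 1, 2, 2 and 0 held these others. Of the 7 windows of lower genes, 0 held TGATGNAA, and 0, 0, 1 and 1 held the others. The others were in 12.5%, 8.47%, 15.5% and 12.4% of all promoters. Too few leading genes had a window (under 80%) for a comparison with these shares, so that none is drawn. A match is a run of letters and not evidence of binding. The windows are printed 5' to 3' on the strand of the gene, with the TGATGNAA match in capitals and other motifs unmarked. Each match is on the opposite strand, so that the letters in capitals are its reverse complement, and it begins 103 bases before the start for Pck2 (chr14:55540016-55540315), 110 for Nupr1 (chr7:126625421-126625720) and 69 for Sult1e1 (chr5:87591562-87591861).
Pck2: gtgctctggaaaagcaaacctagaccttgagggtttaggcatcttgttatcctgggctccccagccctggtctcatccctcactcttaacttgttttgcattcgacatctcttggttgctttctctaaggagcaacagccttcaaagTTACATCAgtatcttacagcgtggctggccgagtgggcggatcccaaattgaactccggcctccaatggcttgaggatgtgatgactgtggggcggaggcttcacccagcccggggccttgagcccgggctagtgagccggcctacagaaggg
Nupr1: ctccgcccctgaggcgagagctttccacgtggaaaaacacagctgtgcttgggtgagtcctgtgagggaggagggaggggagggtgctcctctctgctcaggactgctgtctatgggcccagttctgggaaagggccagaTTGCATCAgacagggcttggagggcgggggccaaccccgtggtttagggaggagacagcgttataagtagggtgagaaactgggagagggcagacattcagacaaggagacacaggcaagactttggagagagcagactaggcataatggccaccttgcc
Sult1e1: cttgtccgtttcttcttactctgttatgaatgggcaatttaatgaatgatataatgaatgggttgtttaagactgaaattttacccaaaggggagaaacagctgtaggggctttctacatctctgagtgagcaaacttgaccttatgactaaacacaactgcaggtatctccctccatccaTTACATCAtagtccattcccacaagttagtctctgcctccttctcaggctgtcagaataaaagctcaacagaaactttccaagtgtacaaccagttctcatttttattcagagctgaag

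Shares over all called genes are not given for the same reason, because 77.5% of the higher and 73.6% of the lower genes had a window.

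Of the 12 leading genes with the largest decreases, Scd1, stearoyl-CoA desaturase 1, was at 5822, 7191, 8395 and 9145 CPM in Cse+/- and 228, 295, 258 and 694 CPM in Cse-/- livers, 20.7-fold lower (log2 fold change -4.37, SE 0.67, adjusted p = 0.00015). Selenbp2, a selenium-binding protein whose transcript is higher in male liver, was at 55, 493, 332 and 115 CPM against 7.14, 2.79, 2.23 and 9.37 CPM (-5.53, SE 0.9, adjusted p = 0.00023). Of the 61-base words of Selenbp2, 44.3% are shared with other genes, chiefly its near copy Selenbp1, so that the counts of the pair are uncertain. Hsd3b5, a hydroxysteroid dehydrogenase of male liver, was at 66.9, 360, 280 and 222 CPM against 23.6, 14.5, 15 and 30.5 CPM (-3.48, SE 0.45, adjusted p = 3.1e-05). The groups did not overlap, and for Selenbp2 and Hsd3b5 mouse av01 was the lowest of the Cse+/- livers and av08 the highest of the knockouts.

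Chrna4, a subunit of neuronal nicotinic acetylcholine receptors, was at 13.1, 11.6, 11.4 and 18.2 CPM in Cse+/- livers and had 3 counts in the Cse-/- livers together. The ratio of scaled counts, 713 to 3, was 274 with an exact 95% interval of 93.4 to 1332. Among the leading genes it had the lowest level in Cse-/- relative to Cse+/- livers. H2-Q1, a class Ib gene of the major histocompatibility complex, was at 2.16, 1.27, 1.94 and 3.04 CPM in Cse+/- livers and also had 3 counts in the Cse-/- livers (ratio 42.3, interval 14.1 to 208). Col27a1, a fibrillar collagen chain, was at 97.3, 113, 61.5 and 118 CPM against 8.2, 9.83, 7.94 and 20.3 CPM (-3.09, SE 0.32, adjusted p = 3e-06).

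Others of this group included Fabp5, a fatty acid carrier, at 12.7, 17.4, 33.3 and 17.8 CPM against 3.07, 2.05, 2.23 and 1.55 CPM (-3.17, adjusted p = 5.8e-07). Tbx3os1, antisense to Tbx3, was at 20.1 to 47.7 CPM against 2.17 to 3.67 CPM (-3.41), whereas Tbx3 had a log2 fold change of 0.06 and was not called. Reads of the antisense pair cannot be told apart where the genes overlap. Car1, a carbonic anhydrase that red cells hold in quantity, was at 6.67 to 12 CPM against 0.248 to 2.07 CPM (-3.37), and the erythroid markers given above moved with it, whose part in the result was not tested. Smim22, a small membrane protein, fell by 3.47, Tff3, a trefoil peptide of mucous epithelia, fell by 3.7, and Mycn, a transcription factor of the Myc family, fell by 2.99 on the log2 scale. Tff3 ranged from 1.13 to 7.03 CPM among the Cse+/- mice and was at most 0.367 CPM in the knockouts.

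Of all genes tested, Alb, the gene of albumin, had the largest loss in CPM. It was at 87978, 64175, 80887 and 80221 CPM in Cse+/- livers and 25507, 28858, 26833 and 49494 CPM in Cse-/- livers, a mean of 78315 ± 10059 against 32673 ± 11299 (SD, n = 4 each), and its log2 fold change was -1.26 (SE 0.17, adjusted p = 4.8e-05). Mouse av08 kept the highest level among the knockouts and still lay below every Cse+/- mouse. Mup3, a major urinary protein, fell from 4662 to 8825 CPM to 2174 to 2457 CPM (-1.66), and Apoa1, the main protein of high-density lipoprotein, from 7890 to 10142 CPM to 4180 to 6183 CPM (-0.77). In contrast, Mat1a, the methionine adenosyltransferase of adult liver, was at 5018, 2969, 3730 and 2975 CPM against 8415, 7230, 6576 and 7349 CPM (1.01, SE 0.21, adjusted p = 0.00198). Cyp2a5, which oxidizes coumarin and nicotine, was at 907, 807, 899 and 1051 CPM against 3033, 4916, 5058 and 4375 CPM (2.25, SE 0.2, adjusted p = 4.6e-07), with 32.6% of its 61-base words shared with other genes, chiefly Cyp2a4. Because CPM is a share of the library, a fall in a gene as abundant as Alb raises the share of others, which the TMM scaling is meant to offset.

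Lists of genes for 44 processes were then read against the background of 11.6% higher and 12.2% lower. Their share of called members ran from processes with no member lower to processes with no member higher.

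**Figure D2:**
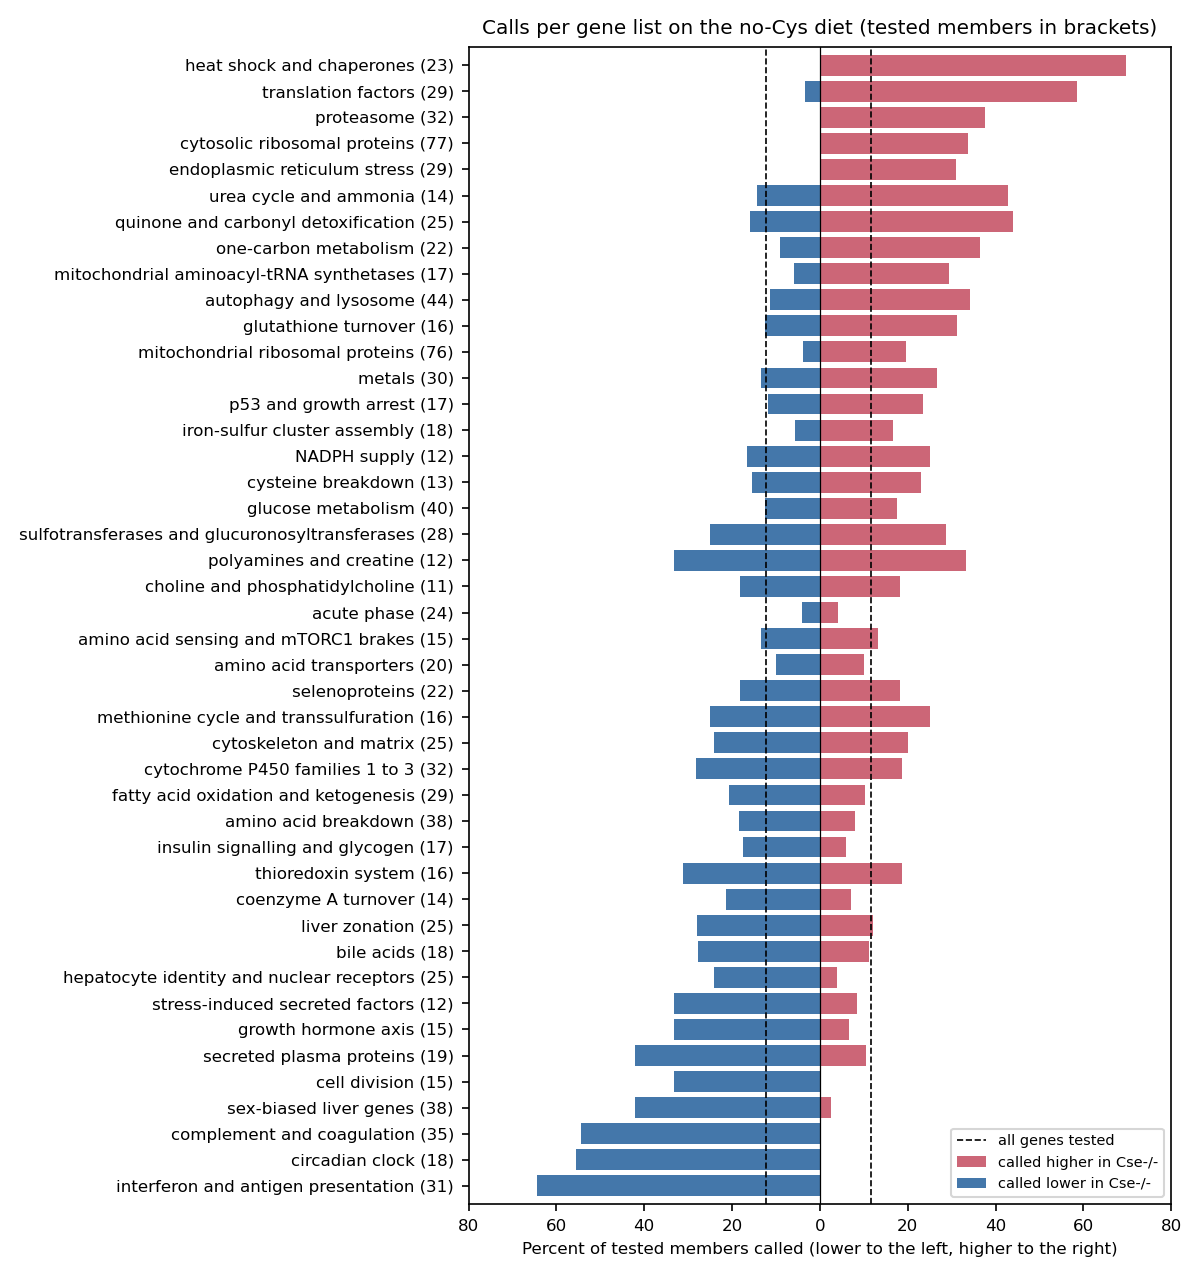
Percent of the tested members of each of 44 gene lists called higher (right, red) or lower (left, blue) in Cse-/- than in Cse+/- liver on the no-Cys diet, with the number of tested members in brackets. Dashed lines mark all 14759 genes tested, 11.6% higher and 12.2% lower. Chaperones (69.6% higher) are at the top and interferon and antigen presentation (64.5% lower) at the bottom.

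Of 23 heat shock proteins and chaperones, 16 were higher and 0 lower, and the median log2 fold change was 0.59. The higher members were 8 of 13 cytosolic and 8 of 10 mitochondrial ones. Hspa8, the constitutive cytosolic HSP70 that also feeds chaperone-mediated autophagy, was at 456, 387, 533 and 426 CPM in Cse+/- and 1263, 1182, 1090 and 585 CPM in Cse-/- livers (1.19, SE 0.18, adjusted p = 0.00011). No knockout overlapped a Cse+/- mouse, and av08 lay lowest among the knockouts. Of the mitochondrial members, Hspa9 (mortalin) was higher by 1.12, Lonp1, a matrix protease, by 0.93 and Hspd1 (HSP60) by 0.59 (adjusted p = 2.1e-06, 0.00058 and 0.00026). The strongly heat-inducible Hspa1a was at -1.26 and Hspa1b at 0.73, and neither passed the test. The split of reads within this pair is uncertain, since 59.2% of the 61-base words of Hspa1b are shared with other genes, chiefly Hspa1a, and so are 46.5% of those of Hspa8 and 39.9% of those of Hspd1, chiefly with Gm15459 and Hspd1-ps3. Without mouse av02 or av07, 1 member was lower.

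In the endoplasmic reticulum, 9 of 29 genes of the unfolded protein response were higher and 0 lower, of which 8 were among 15 chaperones and 1 among 14 sensors and degradation factors. Hyou1, a large chaperone of the lumen, was at 165, 103, 163 and 146 CPM against 239, 295, 270 and 317 CPM (0.96, SE 0.24, adjusted p = 0.00625). Hspa5 (BiP) was higher by 0.8, Dnajb9 by 0.84 and Derl1, of the retrotranslocation channel, by 0.49, while the sensor Ern1 (0.12) and Xbp1 (0.17) were not called. Of the oxidases and isomerases that form disulfide bonds, Pdia4 was higher by 0.7, but not without mouse av08, and Pdia3 (0.19), Pdia6 (-0.14), Ero1l (0.32) and Ero1lb (0.1) were not called. Prdx4, the peroxiredoxin of the lumen, fell by 0.91 (adjusted p = 7.4e-07).

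Of 29 translation factors, 17 were higher and 1 lower, with a median of 0.32. Eif3c, a subunit of the initiation complex eIF3, was at 111, 115, 128 and 113 CPM against 245, 236, 226 and 186 CPM (0.94, SE 0.11, adjusted p = 7.5e-06), with no overlap. Subunits of eIF2 and of its exchange factor were among them, with Eif2s1 at 0.68, Eif2b3 at 0.52 and Eif2b5 at 0.49. The kinase PERK (Eif2ak3) was higher by 0.73 and GCN2 (Eif2ak4) was lower by 0.51, the latter not without mouse av07. Without av02, 11 translation factors were higher.

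Of 77 cytosolic ribosomal proteins, 26 were higher and 0 lower, with a median of 0.29. The count was 9 in a fit of the 2 groups alone. It was 5 without av06, 8 without av02, 11 without av07, 16 without av03, 17 without av01 and 44 without av08, while 41 were higher without both av01 and av08. Without av06, 1 was lower. The mean log2 level of the list relative to Cse+/- was -0.14 to 0.19 in Cse+/- and -0.07 to 0.54 in Cse-/- livers, so that the groups overlapped. Rpl3 was at 183, 203, 192 and 180 CPM against 363, 353, 344 and 225 CPM (0.76, SE 0.12, adjusted p = 0.00016), and its mRNA shares 56.5% of its 61-base words with other genes, chiefly Rpl3-ps1. In mitochondria, 15 of 76 ribosomal proteins were higher and 3 lower, with 23 higher without av04 and 1 lower without av04, av05 or av08, and 5 of 17 aminoacyl-tRNA synthetases were higher and 1 lower, with 3 higher without av01 or av06. Mrps18b (0.74) and Ears2 (0.69) had the largest of these increases, and 29.5% of the words of Mrps18b are shared with other genes.

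Of 32 proteasome subunits, 12 were higher and 0 lower, with a median of 0.15. Psmb5, a catalytic subunit, was at 49.6, 51.1, 62.2 and 66.9 CPM against 91.3, 99.4, 102 and 71.5 CPM (0.66, SE 0.12, adjusted p = 0.00044), with 48.3% of its 61-base words shared with other genes, and the ATPase subunit Psmc4 was higher by 0.47. By contrast the immunoproteasome subunits Psmb8 and Psmb9 were lower, as given below. Of 44 genes of autophagy and the lysosome, 15 were higher and 5 lower, with 3 lower without av01, av03, av04 or av07. Sqstm1 (p62), the cargo receptor, was at 333, 295, 316 and 319 CPM against 602, 599, 640 and 524 CPM (0.9, SE 0.09, adjusted p = 1.8e-06). Among lysosomal enzymes, the protease cathepsin L (Ctsl) was at 960, 618, 560 and 597 CPM against 1478, 1809, 1418 and 1346 CPM (1.15), and Hexa was higher by 0.84, whereas Ctsh fell by 0.55 and Lamp1, of the membrane, by 0.36. The transcription factor Tfeb was at -0.27 and was not called.

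**Figure D3:**
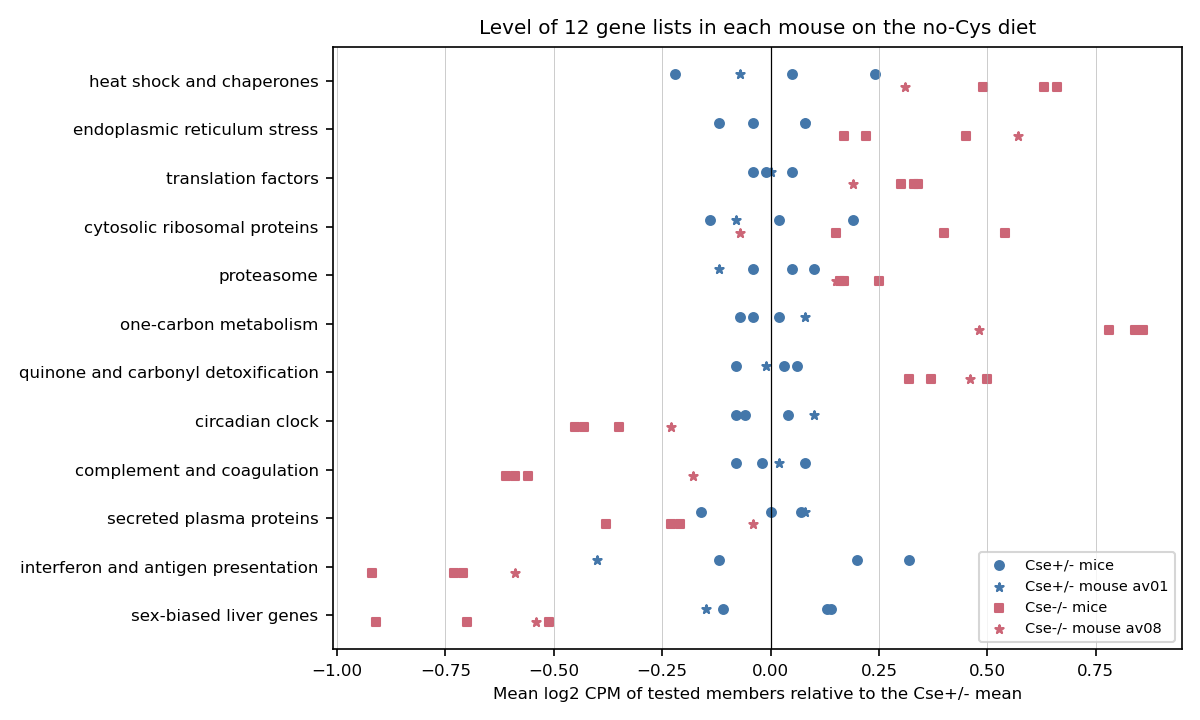
Mean log2 CPM of the tested members of 12 gene lists in each liver on the no-Cys diet, relative to the mean of the Cse+/- livers. Circles are Cse+/- and squares Cse-/- mice, and stars mark mice av01 and av08. The levels of the genotypes overlap for cytosolic ribosomal proteins and secreted plasma proteins and not for the other 10 lists, and av08 is the knockout nearest the Cse+/- livers for 9 of the 12.

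In the methionine cycle, 4 of 9 genes were higher and 1 lower: Mat1a, given above, Mtr, methionine synthase (0.78), its reductase Mtrr (0.44) and Bhmt2 (0.38) were higher, and Mat2a, the methionine adenosyltransferase of extrahepatic tissue, was lower by 0.38. Cbs, which makes the cystathionine that Cth splits, was at 0.14 and was not called. Of 5 methyltransferases, Gamt, of creatine synthesis, and Inmt, an indole methyltransferase, were lower by 1.05 and 1.04. Gatm, the first enzyme of creatine synthesis, and Slc6a8, the creatine transporter, were lower by 0.86 and 1.01 (adjusted p = 0.00305 and 0.001).

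Of 22 genes of one-carbon metabolism, 8 were higher and 2 lower, and the 4 knockouts lay 0.48 to 0.86 above the Cse+/- mean on the log2 scale while the Cse+/- mice ranged from -0.07 to 0.08. Besides Aldh1l2 and the genes Psat1 and Mthfd2, which the paper names, Mthfd1l was higher by 1.33, Shmt2, the mitochondrial serine hydroxymethyltransferase, by 0.52, Phgdh and Psph, the first and last enzymes of serine synthesis, by 3.08 and 0.87 and Gldc, of glycine cleavage, by 0.72. Of the 61-base words of Phgdh 55.7% are shared with other genes, chiefly Gm7901, and Phgdh had enough counts for the test in 10 of 14 alternatives. Of the cytosolic enzymes, Shmt1 (-0.04) and Mthfd1 (0) were not called. Mthfd2l, also a mitochondrial enzyme of the folate cycle, was lower by 0.75 (adjusted p = 0.034), a call lost without av01, av02, av05, av06, av07 or av08. Without av02, av05, av07 or av08, 1 gene of the list was lower.

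Of 16 genes of glutathione turnover, 5 were higher and 2 lower. Gsr, glutathione reductase, was at 53.8, 54.5, 64.9 and 56.5 CPM against 96, 122, 134 and 108 CPM (1.0, SE 0.14, adjusted p = 5.2e-05). Gss, which adds glycine to gamma-glutamylcysteine, and Gpx4, which reduces lipid peroxides, were higher by 0.51 and 0.53, and Gpx1, of hydrogen peroxide removal, fell by 0.46. Gclc (0.43) and Gclm (0.07), the subunits of the enzyme for the first step, were not called, although Gclc passed in a fit of the 8 libraries alone and without the filter on low counts. In the thioredoxin system 3 of 16 were higher and 5 lower, with 3 lower without av05. The reductases diverged by compartment: Txnrd1, of the cytosol, was at 123, 118, 115 and 116 CPM against 153, 139, 169 and 187 CPM (0.46, SE 0.1, adjusted p = 0.00261), and Txnrd2, of mitochondria, fell by 0.56 (adjusted p = 0.00031).

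Detoxification of quinones and carbonyls showed 11 of 25 genes higher and 4 lower, with 2 lower without av02, av05 or av07. Ephx1, microsomal epoxide hydrolase, was at 320, 395, 362 and 489 CPM against 864, 1086, 1180 and 694 CPM (1.29, SE 0.18, adjusted p = 5.6e-05). The exporter Abcc3 was at 175, 237, 258 and 237 CPM against 653, 579, 599 and 574 CPM (1.41, SE 0.13, adjusted p = 8.7e-07). Neither overlapped between genotypes. The list did not move as one, because Ptgr1, prostaglandin reductase 1, was at 2.7, 2.12, 3.97 and 3.18 CPM against 0.236, 0.733, 0.559 and 0.812 CPM (-2.38, SE 0.29, adjusted p = 1.6e-05), and Nqo2 and Aox3 were lower by 0.55 and 0.7. Ugdh, which makes UDP-glucuronate for conjugation, was at 90.7, 87.3, 67.3 and 80.4 CPM against 185, 185, 233 and 416 CPM (1.65, SE 0.23, adjusted p = 5.5e-05). Of 28 sulfotransferases, glucuronosyltransferases and their supply enzymes, 8 were higher and 7 lower, and among the lower was Papss2, which makes the sulfate donor PAPS (-0.65, adjusted p = 0.00145).

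Cytochromes P450 of families 1 to 3 were split as well, with 6 of 32 genes of the list higher and 9 lower, and 3 higher without av02. All 9 lower genes belonged to family 2, among them Cyp2c23 (-1.49) and Cyp2c29 (-1.17), which oxidize arachidonic acid and drugs. Besides Cyp2a5, Cyp3a59 was higher by 1.92 and Por, the reductase that feeds electrons to these enzymes, by 0.68.

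Of 14 genes of coenzyme A turnover, 1 was higher and 3 lower: Ppcdc, which decarboxylates the cysteine adduct of pantothenate, was higher by 0.55, and Pank3, Enpp3 and Nudt7 were lower by 0.39, 0.92 and 1.44. Nudt7, which cleaves coenzyme A in peroxisomes, was at 146, 790, 620 and 565 CPM against 220, 193, 158 and 210 CPM, and its groups overlapped through mouse av01 alone. Vnn1 (0.41), which releases cysteamine from pantetheine, was not called. Of 13 genes of cysteine breakdown, 3 were higher and 2 lower, with 1 lower without av05 and 5 without av08. Cdo1, which opens the route to taurine, was at -0.26 and Csad at -0.11, and neither passed, although Cdo1 did without av08. Got1, cytosolic aspartate aminotransferase, which also acts on cysteine, was at 415, 281, 431 and 260 CPM against 901, 926, 928 and 952 CPM (1.42, SE 0.2, adjusted p = 5.1e-05). Of 18 genes of iron-sulfur cluster assembly, 3 were higher and 1 lower, the latter not without av02, av05, av06 or av07, and Nfs1, the desulfurase that takes sulfur from cysteine, was at 0.07. Of 22 selenoproteins and enzymes of selenocysteine synthesis 4 were higher and 4 lower, with 2 higher without av02 or av06 and 2 lower without av05. Dio1, the deiodinase that activates thyroid hormone, was at 40.8, 251, 138 and 223 CPM against 54.4, 9.9, 17.1 and 23.1 CPM (-2.64, SE 0.47, adjusted p = 0.0005), and again av01 was the Cse+/- liver that overlapped.

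Of the called genes of metal handling, the metallothioneins had the largest increases. Metallothioneins are small proteins that bind zinc and copper through cysteines, and 20 of the 61 codons of Mt1 and of Mt2 encode cysteine (32.8%). Mt1 was at 185, 40.8, 116 and 95.4 CPM in Cse+/- and 281, 229, 346 and 441 CPM in Cse-/- livers (1.57, SE 0.42, adjusted p = 0.0104). Mt2 was at 96.5, 12.8, 45 and 28.8 CPM against 124, 103, 174 and 177 CPM (1.66, SE 0.53, adjusted p = 0.0287). For both, no knockout overlapped a Cse+/- mouse, although mouse av01 came close, and the call of Mt2 was lost without av02, av03, av04, av07 or av08. The zinc sensor Mtf1 was at 0, and the zinc transporters Slc39a4 and Slc30a10 were lower by 0.97 and 0.78.

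The promoters of the 2 genes are shown because they hold letters of metal-response elements, the sites to which MTF1 binds. The forms of the core TGCGCNC and TGCACNC were searched on both strands and are in capitals in the windows from RefSeq (GRCm38.p6), with 3 matches for Mt1 (chr8:94178839-94179138) and 4 for Mt2 (chr8:94172368-94172667). The forms were in 15.5% and 12.4% of all promoters. Both windows are on the plus strand, printed 5' to 3', and a match on the opposite strand appears as its reverse complement. Matches began 23 bases before and 2 and 20 bases after the start for Mt1. For Mt2 they began 223, 128 and 50 bases before the start and 4 after it. The Mt2 window also holds an unmarked run with the letters of TGACNNNGC. As above, a match is a run of letters and not evidence of binding.
Mt1: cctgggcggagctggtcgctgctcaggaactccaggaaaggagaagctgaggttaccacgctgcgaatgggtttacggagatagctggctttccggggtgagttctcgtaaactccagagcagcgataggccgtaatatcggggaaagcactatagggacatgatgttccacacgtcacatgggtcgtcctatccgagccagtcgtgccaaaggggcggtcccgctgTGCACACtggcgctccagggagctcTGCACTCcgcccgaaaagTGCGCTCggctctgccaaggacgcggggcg
Mt2: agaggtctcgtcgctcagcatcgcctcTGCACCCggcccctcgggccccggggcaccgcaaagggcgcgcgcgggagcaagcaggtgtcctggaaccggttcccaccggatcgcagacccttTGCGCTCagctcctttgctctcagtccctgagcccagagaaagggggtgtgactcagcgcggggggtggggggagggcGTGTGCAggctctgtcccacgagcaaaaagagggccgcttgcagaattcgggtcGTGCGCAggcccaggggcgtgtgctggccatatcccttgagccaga

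Of 12 genes of iron storage and transport, 4 were higher and 1 lower, with a median of -0.02. Fth1 and Ftl1, the ferritin chains, were at 1854 to 2371 and 1643 to 2174 CPM in Cse+/- livers and at 3064 to 4563 and 3097 to 3599 CPM in Cse-/- livers (0.92 and 0.88, adjusted p = 4.7e-05 and 6.7e-05), with 75.4% of the 61-base words of Ftl1 shared with other genes. Tfrc, the transferrin receptor, was at 38.3, 14.5, 26.6 and 20.3 CPM against 41.4, 60.5, 44.2 and 50.2 CPM (0.98, SE 0.24, adjusted p = 0.00643). Hmox1, which releases iron from haem, was higher by 0.65 and Trf, transferrin, was lower by 0.73, while the iron regulatory proteins Aco1 and Ireb2 were both at 0. The messenger of hepcidin, Hamp, was at 0.82 and was not called.

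Of 14 genes of the urea cycle and ammonia handling, 6 were higher and 2 lower, with 3 higher without av02 or av04 and 1 lower without av01, av03, av05, av06 or av07. Otc, ornithine transcarbamylase, was at 379, 398, 375 and 393 CPM in Cse+/- and 151, 149, 145 and 270 CPM in Cse-/- livers (-1.11, SE 0.15, adjusted p = 5.4e-05). The aminotransferases Gpt and Gpt2, which make alanine, were higher (0.59 each). Odc1, ornithine decarboxylase of polyamine synthesis, was at 53.4, 33.4, 72.8 and 46.4 CPM against 125, 143, 113 and 88.5 CPM (1.19, SE 0.21, adjusted p = 0.00054), with 37.1% of its 61-base words shared with other genes, and Srm, spermidine synthase, was higher by 0.45. Of 38 genes of amino acid breakdown, 3 were higher and 7 lower, with 6 higher without av01 and 4 lower without av05, av06 or av07. Of 15 genes of amino acid sensing and brakes of mTORC1, 2 were higher and 2 lower (13.3% each), near the shares over all genes, with 1 lower without av02, av03, av05, av06 or av07. Sesn2 (0.77) and Eif4ebp1 (0.87) were higher and Castor1, an arginine sensor, lower by 0.81.

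Of 35 complement and coagulation genes, 19 were lower and 0 higher, with a median of -0.39, of which 11 were among 19 complement genes and 8 among 16 coagulation genes. C9, the component that forms the pore of the membrane attack complex, was at 410, 446, 412 and 298 CPM in Cse+/- and 52.8, 35.9, 24.8 and 153 CPM in Cse-/- livers (-2.56, SE 0.38, adjusted p = 0.00011). C8a, of the same complex, fell by 1.52, and C1s1, a protease of the classical pathway, by 0.89. C3, the central component, was at -0.04 and was not called. In coagulation, F11 fell by 0.85, protein S (Pros1) by 0.67 and protein C (Proc) by 0.5. The median of the list was -0.22 on the no-Trp diet, with 0 members called in either direction. The Kupffer cell and macrophage markers that were lower were the complement genes C1qa (-0.35), C1qb (-0.25) and C1qc (-0.32). The part of these cells in the result was not tested.

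Of 19 other plasma proteins, 8 were lower and 2 higher, with 1 higher without av02, av04 or av07. Vtn, vitronectin, fell by 0.61 and Apoh by 0.42, whereas Ahsg, fetuin A, was at 10368, 8197, 9548 and 9145 CPM against 13501, 13323, 11885 and 11849 CPM (0.44, SE 0.1, adjusted p = 0.00454). Ahsg and Alb thus changed in opposite directions in all 4 knockouts relative to the Cse+/- range. Of 24 acute-phase genes only 1 was higher and 1 lower, Apcs, the serum amyloid P component, at 1.76 and Orm1 at -1.16. Saa1, serum amyloid A, was at 729, 27.5, 210 and 23.7 CPM against 30.2, 12.8, 14.8 and 191 CPM and was not called (-1.99, SE 1.0, adjusted p = 0.156). Within each genotype it was highest in av01 and in av08. The acute-phase counts moved with single mice, to 3 higher without av01, to 3 lower without av02 or av04, to 8 lower without av08, and to 0 lower without av01, av05, av06 or av07. Among hepatokines, Enho, which encodes adropin, was at 18, 15.2, 18.1 and 15.2 CPM against 2.54, 2.27, 2.3 and 2.66 CPM (-2.76, SE 0.35, adjusted p = 1.9e-05), and the activin antagonist Fst fell by 2.04.

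The cysteine that transcripts encode was counted from the coding sequence of 12599 of the 14759 genes (85.4%). Cysteine codons made up a median of 1.7% of codons in genes that were higher, 2.0% in those that were lower and 1.94% in those that were not called, as a description without a test. Weighted by reads, cysteine codons were 2.23 to 2.33% in Cse+/- and 2.08 to 2.18% in Cse-/- livers. Albumin, with 36 cysteines in 608 codons (5.92%), carried this difference: without Alb the ranges were 1.95 to 1.99% and 1.96 to 1.97%, and they overlapped.

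Interferon-stimulated and antigen presentation genes were lower or not called. Of 31 genes, 20 were lower and 0 higher, with a median of -0.72; without av02 13 were lower, and without both av01 and av08 22 were. Among 17 interferon-stimulated genes 11 were lower. Ifit1, which binds foreign RNA, was at 2.79, 9.38, 5.6 and 5.02 CPM in Cse+/- and 2.12, 2.64, 1.92 and 3.54 CPM in Cse-/- livers (-1.18, SE 0.3, adjusted p = 0.00686), where av01 overlapped the knockouts, and Irf7, a master factor of the response, fell by 1.04 (adjusted p = 0.00052). Among 14 antigen presentation genes 9 were lower. Psmb8, a catalytic subunit of the immunoproteasome, was at 17.3, 18.5, 25.7 and 18.8 CPM against 4.9, 5.65, 5.71 and 7.89 CPM (-1.74, SE 0.18, adjusted p = 2.9e-06), and Psmb9 fell by 1.03 and the peptide transporter Tap1 by 0.76. H2-Q10, a secreted class I molecule made by liver, fell by 1.32 (adjusted p = 3e-06). Of all 24 tested genes named H2, 10 were lower and 0 higher. The summed markers of Kupffer cells and of lymphocytes and neutrophils were lower in Cse-/- livers too, with the ranges given above, and their part in the result was not tested.

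Sex-biased genes were lower on the male side. All mice were male, and male liver expresses a set of genes under pulsatile growth hormone. Of 23 male-biased genes, 16 were lower and 0 higher, with a median of -1.24, while of 15 female-biased genes 1 was higher and 0 lower, with a median of 0.4. Slco1a1, an organic anion transporter, was at 230, 566, 445 and 434 CPM in Cse+/- and 150, 158, 150 and 50.3 CPM in Cse-/- livers (-1.72, SE 0.3, adjusted p = 0.00045). Selenbp2, Hsd3b5 and Mup3, given above, belong to this list, and C6, of complement, fell by 1.55 and Susd4 by 1.72. Cyp2a4, a female-biased P450, was at 0.451, 1.98, 0.622 and 2.76 CPM against 4.19, 7.41, 8.56 and 11.9 CPM (2.41, SE 0.54, adjusted p = 0.00313), and it shares 30% of its 61-base words with other genes, chiefly Cyp2a5. Of the whole list, 4 were higher without av01 and without both av01 and av08. It was 2 without av04, av06 or av07, with DESeq2, without the filter and at a mean of at least 1 CPM. Cyp2b9 (2.65) and Cux2 (1.12), also female-biased, were not called. Cyp2b9 passed without av04, av06 or av07, with DESeq2, without the filter and at a mean of at least 1 CPM. Cux2 passed without av01 and without both av01 and av08.

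In the growth hormone axis 5 of 15 genes were lower and 1 higher. Ghr, the receptor, was at 408, 606, 571 and 545 CPM in Cse+/- and 207, 202, 178 and 289 CPM in Cse-/- livers (-1.28, SE 0.14, adjusted p = 6.7e-06). Igf1 fell by 0.48 and Igfals, which keeps IGF1 in a circulating complex, by 0.7. Igfbp1, which binds IGF1 and rises in fasting, was at 80.2, 139, 155 and 157 CPM against 491, 432, 172 and 183 CPM (1.26, SE 0.36, adjusted p = 0.0143). Mice av05 and av06 carried this increase, and without either of them it was not called, which left 0 genes of the axis higher. The log2 fold change of Igfbp1 was at least 0.99 under every alternative. Bcl6, a repressor of female-biased genes, was at 11.7, 32.7, 42.2 and 77.6 CPM against 11.2, 12, 30.5 and 11.3 CPM and was not called (-1.34, SE 0.52, adjusted p = 0.0665), although it passed without av01 or av07, without both av01 and av08, and without the filter.

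Circadian genes were lower without exception among those called, 10 of 18, with a median of -0.38. All 4 output factors were lower. Nfil3 was at 9.19, 14.7, 11.6 and 16.9 CPM in Cse+/- and 5.84, 5.35, 5.77 and 8.49 CPM in Cse-/- livers (-1.05, SE 0.24, adjusted p = 0.00327), Hlf fell by 0.88, Dbp by 0.53 and Tef by 0.3. Of 10 repressors 5 were lower, among them Cry1 (-0.88) and Per3 (-0.7), and the activator Arntl (Bmal1) was at 1.01 and was not called. The time of day at which each liver was taken is not given in the labels, and its part in the result was not tested.

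Of 15 genes of cell division, 5 were lower and 0 higher. Ccnd1, cyclin D1, was at 11.9, 9.1, 32.7 and 22.6 CPM in Cse+/- and 8.32, 6.23, 4.72 and 3.62 CPM in Cse-/- livers (-1.73, SE 0.3, adjusted p = 0.00044). Cdk1, the kinase of mitosis, fell by 2.66 (adjusted p = 0.00045), and Mki67 (-1.09) was not called. At a mean of at least 1 CPM, in a fit of the 8 libraries alone, and without both av01 and av08, 3 were lower. In the fit of the 8 libraries alone 1 was higher. Cdkn1a (p21), an inhibitor of these kinases, was at 0.721, 1.13, 1.79 and 4.53 CPM against 12.3, 9.39, 22.5 and 5.76 CPM (2.58, SE 0.5, adjusted p = 0.00097). Of 17 targets of p53 and genes of growth arrest 4 were higher and 2 lower, but leaving out any 1 of the 8 mice left 1 or 2 higher, and leaving out av02, av03, av05, av07 or av08 left 1 lower. Mdm2 (0.07) and Ccng1 (0.2), which p53 also drives, were not called.

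Of 40 genes of glucose metabolism 7 were higher (17.5%) and 5 lower (12.5%), against 11.6% and 12.2% of all genes. Besides Pck2, the gluconeogenic genes Pck1 (-0.18), G6pc (-1.15) and Fbp1 (-0.03) were not called, although G6pc passed without av05 and without the filter on low counts. Pfkfb3, which makes the activator of phosphofructokinase, was at 65.2, 92.1, 105 and 107 CPM in Cse+/- and 42.6, 39.1, 29.9 and 22.9 CPM in Cse-/- livers (-1.46, SE 0.25, adjusted p = 0.00037), and Khk, ketohexokinase, fell by 0.93. In the citrate cycle Ogdh (0.45) and Mdh2 (0.42) were higher and Cs, citrate synthase, was lower by 0.29. Of 29 genes of fatty acid oxidation and ketogenesis 3 were higher (10.3%) and 6 lower (20.7%), with 1 higher without av05, 8 without av08, 5 with DESeq2 and 7 without the filter. Fabp1, the fatty acid carrier of liver, fell by 1.68 and Acaa2, the thiolase of mitochondria, by 0.66, while Ppara (0.05) and Cpt1a (0.47) were not called, although Cpt1a passed without av08, with DESeq2, without the filter and in a fit of both groups alone. The groups of Fabp1 overlapped through mouse av01 alone, at 1436 CPM against 656 to 1629 CPM in Cse-/- livers.

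Of 9 genes of bile acid synthesis 4 were lower and 2 higher. Cyp39a1, which hydroxylates 24-hydroxycholesterol, was at 75.5, 27.5, 32 and 43.4 CPM in Cse+/- and 167, 172, 208 and 110 CPM in Cse-/- livers (1.88, SE 0.23, adjusted p = 1.7e-05). Cyp7a1, the rate-limiting enzyme of the classical route, was at 204, 48.2, 153 and 59.8 CPM against 22.5, 20.8, 43.5 and 86 CPM (-1.43, SE 0.51, adjusted p = 0.0466). The groups overlapped through av08, and the call was lost without av01, av03, av05, av06 or av07. Slc27a5, which activates bile acids for conjugation, fell by 0.8 and the uptake carrier Slc10a1 (NTCP) by 0.54.

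Transcripts of the mitochondrial genome were lower. Of its 13 protein genes 11 could be tested, of which 9 were lower and 0 higher, and the median was -0.7. mt-Nd2, of complex I, was at 7497, 6735, 6286 and 7486 CPM in Cse+/- and 3559, 3925, 3732 and 3646 CPM in Cse-/- livers (-0.91, SE 0.09, adjusted p = 2.8e-06). mt-Co1 lay at 16207 to 19075 against 10220 to 13246 CPM (-0.62) and mt-Cytb at 9578 to 12076 against 6531 to 7844 CPM (-0.57), and 45.1% of the 61-base words of mt-Co1 are shared, chiefly with the nuclear copy Gm29216.

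Of 27 genes of cytoskeleton and matrix, 25 were tested, of which 5 were higher and 6 lower, with 3 lower without av02. Krt18, a keratin of hepatocytes, was higher by 1.26 (adjusted p = 7.4e-08) and its partner Krt8 by 0.63, and Tubb2a, a tubulin, by 1.57, with 46.8% of its 61-base words shared with other genes, chiefly Tubb2b. Col3a1 fell by 1.17 and Tmsb10, an actin-sequestering peptide, by 1.11. Of the 10 markers of stellate cells and fibroblasts Acta2 (-1.31), Lrat (-0.61), Hand2 (-0.61) and Colec11 (-0.36) were lower too, and the ranges of their sum are given above. Their part in the result was not tested.

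The no-Trp diet was used to ask which of these genotype differences occur when the missing amino acid is tryptophan. In 3 Cse-/- against 3 Cse+/- livers of other mice, 206 genes were higher (1.4%) and 183 lower (1.24%), 2.64% in all. These counts rest on fewer mice. They fell to 56 higher and 64 lower without av19, to 50 and 59 without av15, to 61 and 112 without av20, and to 168 and 109 without av16. Adipose markers were highest in mice av14 (Cse-/-) and av17 (Cse+/-) of this diet. Cfd was at 11.1 and 26.3 CPM in them and at most 0.544 CPM in the other no-Trp livers. Adipoq was at 1.08 and 2.91 CPM and Fabp4 at 32 and 32.3 CPM. Without av14, 238 genes were higher and 183 lower, and without av17, 204 and 176. The part of adipose tissue in these counts was not tested. Of the genes called on the no-Cys diet 181 were also called on the no-Trp diet, 165 of them in the same direction, which is 5.15% of the calls on the no-Cys diet and 46.5% of those on the no-Trp diet. The difference between the diets was itself tested, and the log2 fold change was higher on the no-Cys diet for 246 genes and lower for 397.

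That is 4.36% of the genes tested. The leading genes were chosen by their values on the no-Cys diet, which this difference uses again, so that their differences are given as a description and nothing is read from how many there were. Of Cth and the 24 leading genes, 14 were past the threshold. Pck2 had a log2 fold change of -0.04 on the no-Trp diet, so that the diets differed by 3.29. Aldh1l2 was at -1.27 (difference 4.16) and Cbr3 at -0.59 (3.52). Col27a1 was at -0.26 on the no-Trp diet (difference -2.83) and Car1 at -0.07 (-3.3). Scd1 was at -0.35 (difference -4.02), with 508, 1404 and 1680 CPM in Cse+/- and 132, 1810 and 872 CPM in Cse-/- livers on the no-Trp diet. Its groups overlapped there, and the Cse+/- livers lay below every Cse+/- liver of the no-Cys diet. Chrna4 was at 0, 0.204 and 0.561 CPM in Cse+/- and 0.647, 0.436 and 0.622 CPM in Cse-/- livers on the no-Trp diet, near 0 in both genotypes, so that the diets differed in the level of the Cse+/- livers. H2-Q1 likewise lay at 0.142 to 0.887 CPM in Cse+/- and 0.125 to 0.561 CPM in Cse-/- livers. Cd36 was called on both diets, with 2.61 on the no-Trp diet (difference 0.28, SE 0.26), and so was Enho, with -2.19 (difference -0.58). Cth itself was at -3.38 (difference -1.03). For these 3 the difference was not past the threshold, which does not show that the effects are equal.

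**Figure D4:**
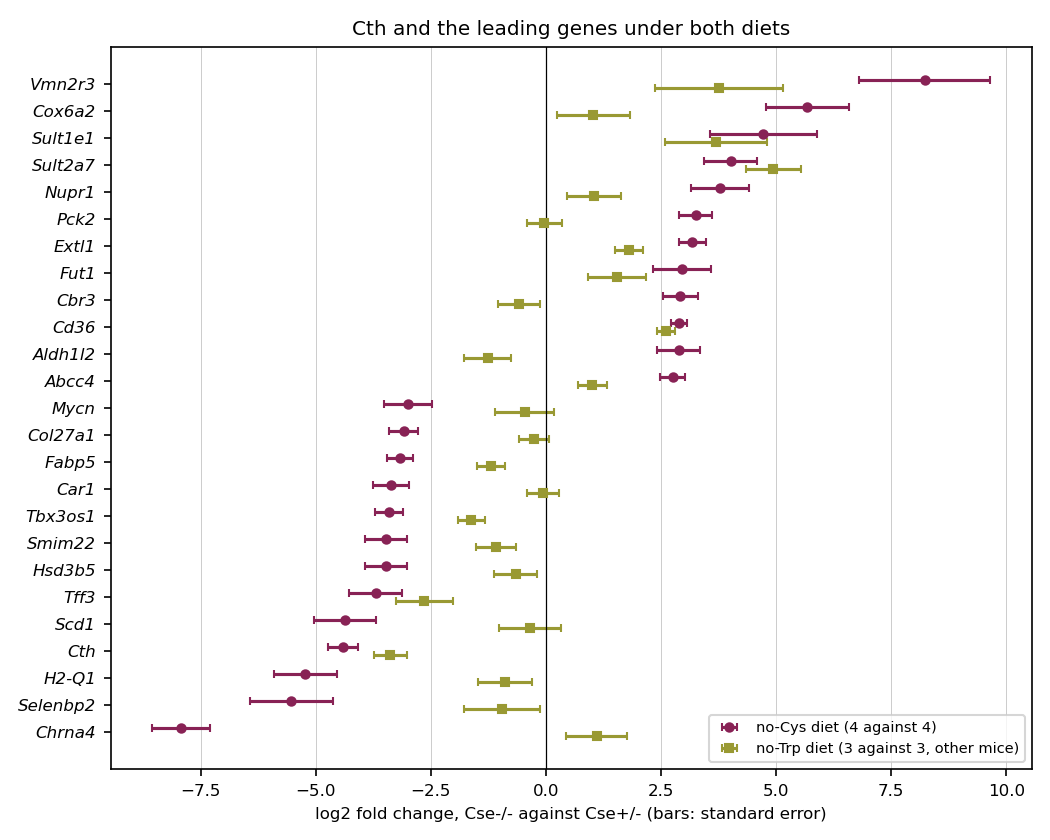
Log2 fold change of Cse-/- against Cse+/- liver for Cth and the 24 leading genes on the no-Cys diet (circles, 4 against 4) and on the no-Trp diet (squares, 3 against 3, other mice), with standard errors as bars. Cd36, Sult2a7 and Cth lie far from 0 on both diets, whereas Pck2, Scd1, Col27a1 and Car1 lie near 0 on the no-Trp diet. Chrna4 and H2-Q1 were under 1 CPM in every no-Trp liver of both genotypes.

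Beyond the leading genes, the metallothioneins changed direction between diets. On the no-Trp diet Mt1 fell by 1.94 (adjusted p = 0.0391) and Mt2 by 2.56 (adjusted p = 0.0343), and the differences between diets were 3.5 and 4.22 (adjusted p = 0.00445 and 0.00633). The decrease of albumin was also larger on the no-Cys diet, with -0.26 on the no-Trp diet (difference -1.0, adjusted p = 0.0345), as was that of Ghr (-0.09, difference -1.19, adjusted p = 0.00436). Cdkn1a, Sqstm1 and Got1 were at -1.93, -0.04 and -0.12 and differed by 4.51, 0.95 and 1.54 (adjusted p = 0.00227, 0.00113 and 0.00562). Ephx1, Abcc3 and Gsr were at -0.01, 0.37 and 0 on the no-Trp diet, differing by 1.29, 1.03 and 1.01 (adjusted p = 0.0107, 0.00618 and 0.0104). mt-Nd2 was at -0.12 (difference -0.79, adjusted p = 0.00423). Psmb8 was lower on both diets, by 0.87 on the no-Trp diet (difference -0.87, adjusted p = 0.0661). Most of these genes were named with their no-Cys values known, so that their p-values too are a description.

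Of the 23 chaperones 0 were higher and 1 lower on the no-Trp diet, of the 29 translation factors 0 in either direction, of the 31 interferon and antigen presentation genes 1 was lower, and of the 23 male-biased genes 1 was lower, with medians of 0.06, -0.02, -0.26 and -0.45. Within the interferon and antigen presentation list, the no-Trp median was -0.41 for antigen presentation and 0 for interferon-stimulated genes. Of the 24 H2 genes, 2 were lower on the no-Trp diet, with a median of -0.5. In the growth hormone axis 4 of 15 genes were lower there. The comparisons share no mice, and the no-Trp groups were smaller, so that the counts of the diets are given side by side, and their difference was not tested.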

How the data were processed

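Per the labels and the study's methods, poly(A) mRNA of each liver was sequenced in paired ends. The authors deposited raw read counts per Ensembl gene, without normalization. The submitters' processing notes name HISAT2 2.1.0, HTSeq 0.11.0 and GRCm38, and the annotation release and the strand setting are not given in the sources used here, so that antisense and overlapping genes cannot be told apart. The table holds 46078 genes, and its columns are named by mouse number, without a replicate number. The genotype and diet of 20 columns were taken by that number from the study's own list of mice, and 1 further column, which had no condition there, was not used. Libraries of a group were compared and none was a copy of another.

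The filterByExpr rule (at least 10 counts, 15 in total) kept 14759 genes. In edgeR 4.0.16 and limma 3.58.1 (R 4.3.3), a quasi-likelihood model with TMM factors and a mean for each of 6 groups was fitted to all 20 libraries, and two-sided p-values were adjusted over all genes tested after Benjamini and Hochberg and called under 0.05. Every adjusted p in the text is from this fit. The SE is the size of the log2 fold change over the root of its F statistic. On data simulated for the no-Cys comparison (13326 genes, of which 180 changed), the same steps found 155 (74.2% of the 2-fold and 97.8% of the 4-fold changes) and made 10 false calls.

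Named genes were Cth; the 12 leading genes in each direction described in the text; the 8 called genes with the largest gain and the 8 with the largest loss in mean CPM; the called extremes of each list; and key members of lists. Other list members, and genes near Cth, were named as examples after their values were seen. The members, the 44 lists and the tests were chosen with earlier results of these data known. Lists are described by counts and medians, without a test. Ratios for genes with at most 3 counts in a group use exact 95% intervals, which cover counting error only. Shared sequence is the percentage of 61-base words of a gene's transcripts (GENCODE M21) found in another gene, and cysteine codons are those of the longest principal coding sequence of at least 50 codons. As alternatives, DESeq2 1.42.0 (Wald test), RLE factors, no filter, a mean of at least 1 CPM, a fit of the groups compared alone, an adjusted p under 0.01 and leaving out each mouse were tried. Leaving out av01 and av08 together was added after seeing the data, as were marker sums without the most abundant marker and the read-weighted share of cysteine codons. Tables and figures used Python 3.11.15 with pandas 2.3.3, scipy 1.17.1 and matplotlib 3.10.9. The values of some list members are not reported here.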

Additional observations from a re-analysis of the deposited data

Results flagged for a closer look

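Single mice lay far from the other 3 of their group for 18 of the 160 groups of values examined, by Dixon's criterion, which chance meets in about 1 in 20 groups. Of the 18, 11 were the Cse-/- mouse av08: Cth at 13.3 CPM, Sult1e1 at 29.9, Sult2a7 at 59, Scd1 at 694, Col27a1 at 20.3, Alb at 49494, Nfil3 at 8.49, Rpl3 at 225, Otc at 270, Slco1a1 at 50.3 and Saa1 at 191 CPM. Mouse av07 was the highest knockout for Abcc4, at 21.5 CPM, and for Bcl6, at 30.5 CPM. Among Cse+/- mice, av01 stood apart for Cth at 332 CPM, Cbr3 at 0.36 CPM and Ctsl at 960 CPM, av02 for Vmn2r3 at 0.0706 CPM, which is 1 count, and av04 for Ftl1 at 2174 CPM.

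The genotype effect differed between the no-Cys and no-Trp diets, by the interaction test of edgeR at an adjusted p under 0.05, for 14 of Cth and the 24 leading genes. These genes were chosen by their no-Cys values, which the test uses again, so that the differences are a description. On the log2 scale the no-Cys effect was the higher one for Pck2 by 3.29, Cbr3 by 3.52, Aldh1l2 by 4.16 and Abcc4 by 1.74. It was the lower one for Chrna4 (difference -9.02, fitted, with 3 counts in the no-Cys knockouts), Selenbp2 (-4.59), H2-Q1 (-4.34), Scd1 (-4.02), Car1 (-3.3), Col27a1 (-2.83), Hsd3b5 (-2.81), Smim22 (-2.38), Fabp5 (-1.97) and Tbx3os1 (-1.79).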

How the results depend on the processing

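On the no-Cys diet, an adjusted p under 0.01 left 892 genes higher and 968 lower. Leaving out each mouse gave 1291 to 1676 higher and 1259 to 1824 lower. On the no-Trp diet, the counts of higher and lower genes were 31 and 41 at an adjusted p under 0.01, 427 and 302 with DESeq2 and 41 and 42 in a fit of the groups alone, and 276 were lower without the filter. Leaving out each mouse gave 50 to 238 higher and 59 to 183 lower. Genes that differed between diets were 60 higher and 100 lower at an adjusted p under 0.01, and 473 were higher with DESeq2. Leaving out each mouse gave 134 to 476 higher and 201 to 674 lower, with the lowest counts without av02 (134 and 229) and av07 (149 and 201), the highest without av08, and counts over 1.5 times below the original also without av06 (154 and 261), av17 (160 and 264) and, for lower genes, av05 (249). The cause of these shifts was not tested. Of 235 named genes tested, 154 were called. At an adjusted p under 0.01, 117 of these were called and 37 were not. Under the other alternatives at 0.05, 124 were called wherever they were tested, 30 lost the call under at least 1, 26 uncalled genes gained one, and 0 reversed. Of the 88 counts of higher or lower genes in the 44 lists, 48 moved by over 1.5 times at an adjusted p under 0.01, 13 in a fit of the 2 groups alone, 11 without the filter, 5 at a mean of at least 1 CPM, 4 with DESeq2 and 0 with RLE factors. The medians of 11 of the 44 lists changed sign under some alternative. No paired analysis was possible because the columns carry no replicate numbers. Depth limits the genes with few counts, such as Vmn2r3, Chrna4 and H2-Q1.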
